A study of Homo sapiens with 16 samples.

Results

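Binding of NF-κB at 8 genes was examined in T47D cells, an established luminal breast cancer line. The study discusses NOP10, TPI1, TMEM147 and PSENEN as bound after DAB2IP loss, and BIRC5, SRSF1, TBCA and CDK5 as candidate targets. They were taken by name, 8 of 20037 protein-coding genes on chromosomes 1 to 22, X and Y, and peaks were counted in each gene's RefSeq span (GRCh38.p14) with 1 kb added on either side, and again with 10 kb added. The data were peak lists from chromatin immunoprecipitation followed by sequencing (ChIP-seq). Cells carried a stable DAB2IP knockdown (lentiviral shRNAs against DAB2IP, puromycin selection, labelled DAB2IP KD) or a control vector (labelled control), and were otherwise untreated. The study calls the control an empty vector in its methods and a scrambled or control shRNA elsewhere. Chromatin was fixed with disuccinimidyl glutarate and formaldehyde. Antibodies against RELA (p65), RELB and NFKB2 gave 6 groups of 2 libraries, hence 12 lists, and "preparation" here means the 3 libraries that share their condition and number. The labels do not say whether the libraries of a preparation share chromatin, whether replicates are separate cultures or which shRNA a library carried. Peak positions do not measure the DAB2IP level, so the knockdown could not be checked here.

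NF-κB proteins form dimers that bind short κB sites in DNA. In the canonical arm, RELA-containing dimers enter the nucleus once an inhibitor protein is degraded. In the noncanonical arm, the NFKB2 precursor is cut to its DNA-binding form, which pairs mainly with RELB. DAB2IP is a RasGAP, a protein that switches Ras off, and a scaffold that restrains NF-κB activation. In breast cancer, NF-κB is known for its part in survival, inflammation and therapy resistance.

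The 8 genes serve unrelated functions. NOP10 is a core protein of the H/ACA ribonucleoproteins, which include telomerase. TPI1 is a glycolytic enzyme. TMEM147 is an endoplasmic reticulum membrane protein, and PSENEN a subunit of gamma-secretase, the protease that cuts Notch receptors. BIRC5 (survivin) acts in the chromosomal passenger complex and opposes apoptosis, SRSF1 is a splicing factor, TBCA a tubulin-folding cofactor and CDK5 a cyclin-dependent kinase best known from neurons. The study singled out NOP10 and TPI1 with RELA and TMEM147 and PSENEN with RELB as bound more after knockdown, and BIRC5 with RELA as bound in control cells. It did so from these same libraries, so the values of those 5 pairs of gene and antibody are a description with no test. The study showed signal tracks for these genes, whereas only listed peaks were counted here. A number of listed peaks is not a measure of binding signal, and read signal was not measured. The counts below therefore cannot decide whether binding at these genes rose or fell after knockdown.

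The promoters of the 4 genes named as gaining RELA or RELB, and of CDK5, which had the promoter most often under a peak, are shown as the 250 bases before the RefSeq start (GRCh38.p14). Capitals mark a broad form of the κB site on either strand, GGG followed by any 5 bases and then CC.
NOP10, chr15:34343137-34343386, minus strand: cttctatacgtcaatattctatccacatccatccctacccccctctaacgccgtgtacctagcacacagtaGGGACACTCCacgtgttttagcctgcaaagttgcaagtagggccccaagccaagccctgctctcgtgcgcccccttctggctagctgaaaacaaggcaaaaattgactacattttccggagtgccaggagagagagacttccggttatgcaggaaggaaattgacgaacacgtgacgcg
TPI1, second start, chr12:6867855-6868104, plus strand: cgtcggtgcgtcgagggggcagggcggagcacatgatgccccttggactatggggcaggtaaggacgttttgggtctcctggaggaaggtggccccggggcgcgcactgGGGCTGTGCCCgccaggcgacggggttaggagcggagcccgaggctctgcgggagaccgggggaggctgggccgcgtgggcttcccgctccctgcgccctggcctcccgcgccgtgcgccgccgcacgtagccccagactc
TMEM147, chr19:35545376-35545625, plus strand: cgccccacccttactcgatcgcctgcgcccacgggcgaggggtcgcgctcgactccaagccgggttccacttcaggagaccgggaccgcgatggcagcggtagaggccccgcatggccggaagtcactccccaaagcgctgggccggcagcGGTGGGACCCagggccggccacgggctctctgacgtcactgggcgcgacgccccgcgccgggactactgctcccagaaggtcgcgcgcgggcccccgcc
PSENEN, chr19:35745401-35745650, plus strand: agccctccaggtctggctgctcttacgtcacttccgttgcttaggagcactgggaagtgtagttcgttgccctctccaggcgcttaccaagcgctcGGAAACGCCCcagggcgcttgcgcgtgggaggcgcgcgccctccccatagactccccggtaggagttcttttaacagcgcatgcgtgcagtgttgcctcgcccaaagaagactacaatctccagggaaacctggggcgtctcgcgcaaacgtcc
CDK5, chr7:151057898-151058147, minus strand: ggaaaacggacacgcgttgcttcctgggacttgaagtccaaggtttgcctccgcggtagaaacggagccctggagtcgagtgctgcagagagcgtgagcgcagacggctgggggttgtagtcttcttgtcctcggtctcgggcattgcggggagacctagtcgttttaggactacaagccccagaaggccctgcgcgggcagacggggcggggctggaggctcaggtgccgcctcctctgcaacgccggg
The table of promoters held 7 of the 8 genes, with 2 starts for TPI1 and no entry for BIRC5. In windows from 250 bases before to 50 after the start, this broad form was found in 5 of these 8 promoters and in 58.7% of all 35116 promoters. The stricter κB consensus was found in 1 of the 8, the NOP10 promoter, 179 bases before the start, and in 11.3% of all promoters. A comparison motif of like composition, GGC followed by any 5 bases and then CC, whose matches can coincide with the broad form on the opposite strand, was found in 5 of the 8 and in 64.4% of all. A match is a run of letters and not evidence of a site, and CDK5, SRSF1 and the first TPI1 promoter held no match to the broad form.

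Weak peaks were listed at all 8 genes, and none passed a q of 0.05. A peak lay within 1 kb of the span in 69 of 96 combinations of gene and library (71.9%), against 77.5% for all protein-coding genes in the same lists. With 10 kb added these were 90 of 96 (93.8%) and 90.3%. The 8 genes have a median length of 3.81 kb and all genes 24.1 kb, and a longer window holds more peaks. The windows held 294 peaks, and the −log10 q was 0 for each of them. This count of 0 of 294 allows a share of these peaks of up to 1.02% with a q at or under 0.05, for counting error only. Over all genes, only 0.062% of combinations of gene and library held such a peak within 1 kb. A count of 0 of 96 combinations therefore does not set these 8 genes apart. Counted by gene and not by peak, 130 genes across the genome, 0.649%, had such a peak in any library within 1 kb, and 180 genes, 0.898%, within 10 kb.

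The number of fragments behind a peak can be recovered from its fold enrichment and p-value, and at these genes it was small. Summits held 1 to 8 fragments, with a median of 4, and 44.2% of the 294 summits held 3 or fewer. The median fold enrichment over the local background was 2.20 and the median −log10 p 2.02. The lists were cut at an unadjusted p of 0.05, and held 517650 to 708764 peaks in 10 libraries. The 2 short lists were those of knockdown RELA replicate 1, with 105534, and of knockdown RELB replicate 1, with 75078, which touches every knockdown count for RELA and RELB below. Read totals are not in the lists, so depth is unknown.

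**Figure D1:**
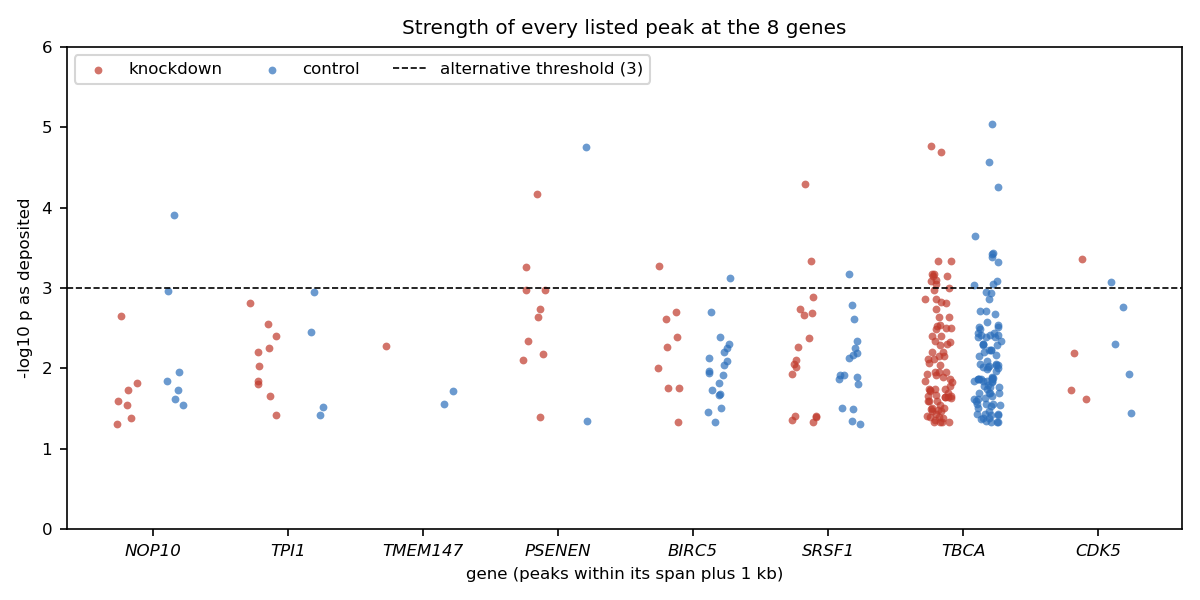
Strength of each of the 294 peaks within 1 kb of a gene span, as the deposited −log10 p (vertical axis), by gene (horizontal axis) and condition (red, knockdown; blue, control). Most points sit below the dashed line at 3, and the highest is a TBCA peak of 5.04 in a control RELA library.

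TBCA held 180 of the 294 peaks, with a span of 85.2 kb. Per kb of window over the 12 libraries, TBCA (2.06 peaks), BIRC5 (2.09), SRSF1 (1.68) and CDK5 (1.48) were near or below the median of all genes, 1.80. NOP10 (4.10), PSENEN (3.10) and TPI1 (2.53) were above it, and TMEM147 was lowest at 0.769. SRSF1 and TBCA had a peak in all 12 libraries, BIRC5 in 10, TPI1 in 9, NOP10 and PSENEN in 8, CDK5 in 7 and TMEM147 in 3. Other annotated genes reach into the 1 kb windows: NUTM1 at NOP10, USP5 and SPSB2 at TPI1, U2AF1L4 at PSENEN and SLC4A2 at CDK5. So do GAPDHS and TMEM147-AS1 at TMEM147, and VEZF1 and LOC101929185 at SRSF1. Peaks there were counted for the named gene and cannot be assigned to it alone.

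**Figure D2:**
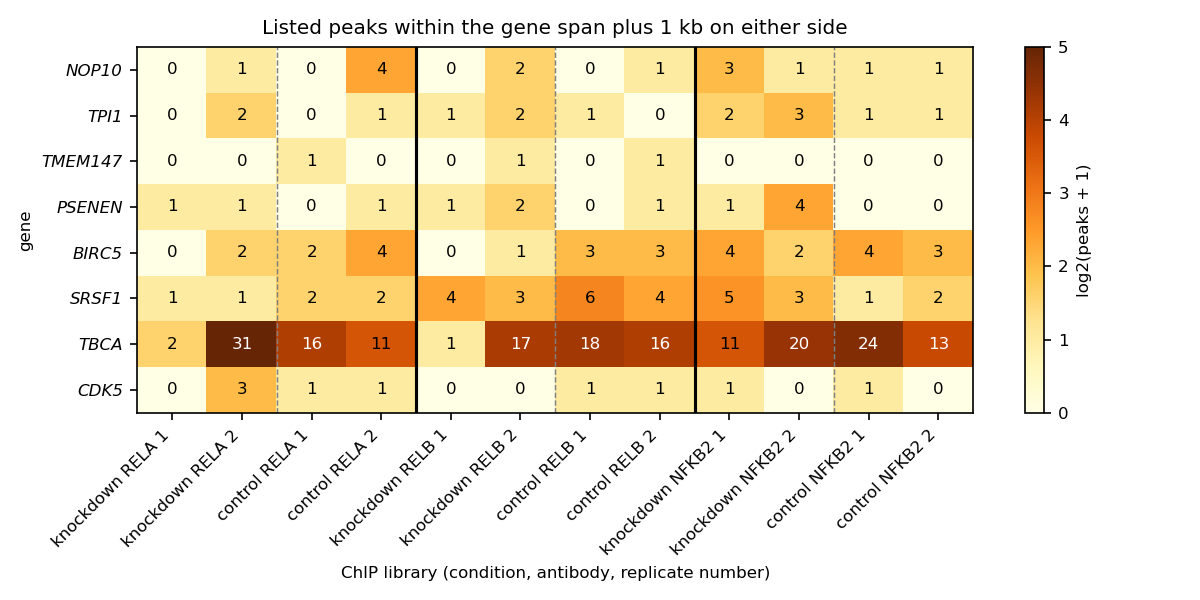
Number of listed peaks within each gene's span plus 1 kb (rows) in each of the 12 libraries (columns, grouped by antibody; dashed lines part knockdown from control), coloured by log2(peaks + 1). PSENEN has a peak in all 6 knockdown libraries and in 2 of 6 control libraries, and TMEM147 is at 0 in 9 libraries.

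NOP10 and TPI1 were looked at first with RELA, by counts of listed peaks and not by read signal. At NOP10, RELA libraries held 0 and 1 peaks after knockdown and 0 and 4 in control, a difference of −1.5. The highest count was in control RELA replicate 2, without which the difference was 0.5, and the groups overlapped. At TPI1 they held 0 and 2 after knockdown and 0 and 1 in control, a difference of 0.5, again with overlapping groups, and without knockdown RELA replicate 2 it was −0.5. At TPI1 within 10 kb, RELA peaks numbered 0 and 11 against 3 and 2 (difference 3, overlapping). The 2 TPI1 peaks of knockdown RELA replicate 2 rested on 1 and 2 fragments at the summit. Among the 10 nearest genes of 0.5 to 2 times the length of NOP10, 9 had a RELA difference as high or higher, and 2 of 10 did for TPI1.

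At NOP10, the strongest peak belonged to control RELA replicate 2, with its summit 293 bp before the start (fold enrichment 3.39, −log10 p 3.91, 6 fragments). It was the only peak over the NOP10 promoter, and it did not cover the κB match there, which starts 179 bases before the start. Its p-value ranked 13187 in its list. Past the end of the gene, peaks that chained into chr15:34340407-34340932 came from 5 libraries with all 3 antibodies, 3 of them knockdown and 2 control. Both knockdown NFKB2 replicates were among them and shared a position there. No position was common to all 5, since the peaks of control RELA replicate 2 and knockdown NFKB2 replicate 1 did not overlap. RELB libraries held 0 and 2 peaks at NOP10 after knockdown and 0 and 1 in control, and NFKB2 libraries 3 and 1 against 1 and 1. Neither antibody separated the conditions (exact two-sided permutation test, p = 1 for each).

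With NFKB2, the conditions did not overlap at TPI1. Libraries held 2 and 3 peaks after knockdown and 1 and 1 in control (difference 1.5). With 10 kb added they held 10 and 10 against 6 and 3, again without overlap. For this antibody 8.13% of all genes were higher after knockdown without overlap within 1 kb, and 8.1% within 10 kb. The exact permutation p was 0.333 in each window, the smallest that 2 against 2 libraries allow, so no single gene could pass 0.05 here. RELB libraries held 1 and 2 peaks after knockdown and 1 and 0 in control.

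Inside TPI1, positions were shared within the knockdown. The region chr12:6868125-6868908, just after the second start, held 4 peaks from 3 libraries: knockdown RELB replicate 2 and both knockdown NFKB2 replicates. No control library called it. Near the end of the gene, chr12:6870464-6870748 was called in 4 libraries with all 3 antibodies, 3 knockdown and 1 control. The strongest TPI1 peak was in control RELB replicate 1 (−log10 p 2.95, 4 fragments), and 85.7% of the 14 TPI1 peaks had 3 or fewer fragments at the summit.

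TMEM147 and PSENEN lie 198.1 kb apart on chromosome 19 and were looked at first with RELB, again by counts of listed peaks. At TMEM147, RELB libraries held 0 and 1 peaks after knockdown and 0 and 1 in control, a difference of 0. Its other peak was in a control RELA library, and all 4 NFKB2 libraries held 0. The knockdown RELB peak lay past the end of the gene, 2899 bp after the start (4 fragments), and the promoter shown above lay under no peak in any library. With 10 kb added, RELB libraries held 1 and 2 against 1 and 1. TMEM147 had fewer peaks in total, 3, than any of its 10 neighbours, which held 4 to 15.

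PSENEN was the gene with the most uneven split between the conditions. RELB libraries held 1 and 2 peaks after knockdown and 0 and 1 in control (difference 1), and 1 of 10 neighbours was as high or higher. RELA libraries held 1 and 1 against 0 and 1. NFKB2 libraries held 1 and 4 against 0 and 0, without overlap (exact permutation p = 0.333; percent of all genes 8.13, as above; 3 of the 10 neighbours were also higher without overlap). The difference was 2.5, and without knockdown NFKB2 replicate 2 it was 1, without replicate 1 it was 4.

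Over the antibodies, PSENEN had a peak in 6 of 6 knockdown and 2 of 6 control libraries. A peak in all 6 knockdown and at most 2 control libraries, a criterion set after these values were seen, was met by 6 genes, 0.0299% of all. The criterion repeats the pattern of PSENEN and includes the RELB libraries from which the study chose it, so this share is a description with no test. PSENEN spans 1.87 kb and all genes have a median length of 24.1 kb. A longer window holds more peaks and so meets the limit on control libraries less easily. The share is thus not one among genes of like length. Of the 6 genes, U2AF1L4 runs into the 1 kb window of PSENEN and shares peaks with it. The split was narrower under other settings: with 10 kb added PSENEN had a peak in 6 knockdown and 5 control libraries, and with a −log10 p of at least 3 in 1 and 1. Without both short lists it was 4 of 4 knockdown and 2 of 6 control libraries.

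PSENEN peaks clustered around the start. Peaks that chained into chr19:35745153-35746681, across the start, came from 4 knockdown and 2 control libraries with all 3 antibodies. Upstream, peaks that chained into chr19:35744230-35745103 came from 3 knockdown libraries, 1 for each antibody, and from no control. The strongest PSENEN peak was nonetheless in control RELA replicate 2, 271 bp after the start, with 7 fragments, a fold enrichment of 3.85 and a −log10 p of 4.75 (rank 2903 in its list). Next came knockdown RELB replicate 2 at 858 bp after the start (6 fragments, −log10 p 4.17). Despite the clustering, within 1 kb of the span no group had overlapping PSENEN peaks in its replicates. Within 10 kb, control NFKB2 did, at chr19:35738975-35739390. The PSENEN promoter shown above lay under a peak in 3 libraries, 2 knockdown and 1 control, and 8.24% of all promoters did so in at least 3.

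**Figure D3:**
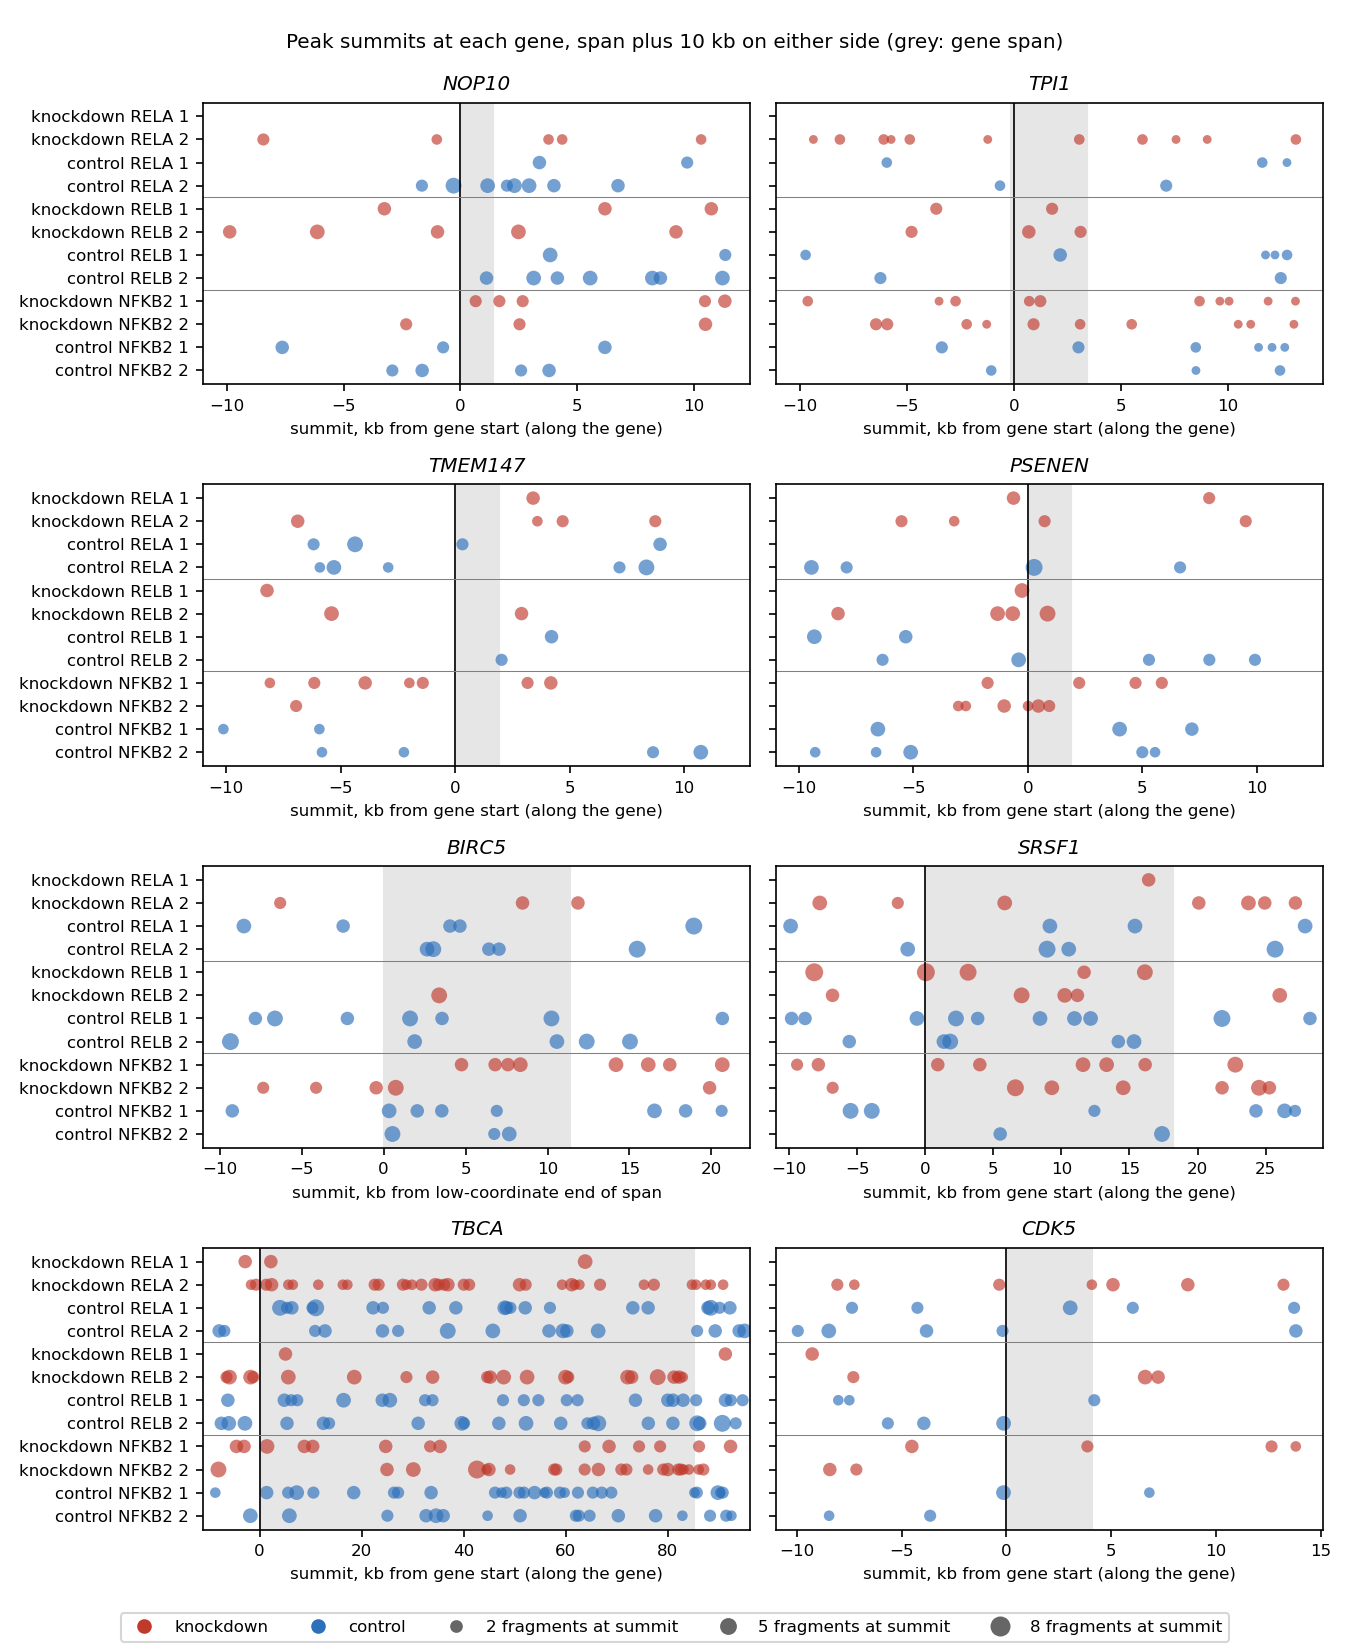
Summits of all peaks in the 10 kb windows, as kb from the gene start along the gene (for BIRC5, which had no start in the table used, from the low-coordinate end of its span), by library; grey marks the gene span, the vertical line the start, and point size the fragments at the summit. PSENEN summits gather within 1 kb of the start in 5 knockdown and 2 control libraries, while TBCA summits spread along its span.

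BIRC5 had on average fewer RELA and RELB peaks after knockdown than in control. RELA libraries held 0 and 2 peaks after knockdown and 2 and 4 in control, a difference of −2 with overlapping groups. With 10 kb added they held 0 and 3 against 5 and 5, without overlap. The short list, knockdown RELA replicate 1, gave the 0 in each window. All 10 neighbours of like length had a RELA difference as high or higher, and all of those differences were negative, from −2 to −0.5.

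RELB libraries held 0 and 1 peaks at BIRC5 after knockdown and 3 and 3 in control, without overlap, and 0 and 1 against 7 and 5 with 10 kb added (exact permutation p = 0.333 in each). Lower counts without overlap were found for 25% of all genes with RELB within 1 kb and for 31.1% within 10 kb, and for 13.5% and 15.5% with RELA. NFKB2 libraries held 4 and 2 against 4 and 3 (exact permutation p = 1).

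The BIRC5 peaks were spread over the gene. Of its 28 peaks, 25 had their summit in the span, and 20 of 23 positions were called in 1 library only. No RELA position was called in both control replicates, nor in both knockdown replicates. The position chr17:78220906-78221236 was called in both control NFKB2 replicates and in knockdown NFKB2 replicate 1, with 3 to 4 fragments at the summit. The strongest BIRC5 peak was in knockdown NFKB2 replicate 2 (−log10 p 3.27, 6 fragments).

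SRSF1 counts were lower after knockdown with RELA and higher with NFKB2. RELA libraries held 1 and 1 peaks after knockdown and 2 and 2 in control. NFKB2 libraries held 5 and 3 against 1 and 2. Neither pair of groups overlapped (exact permutation p = 0.333 for each; 13.5% of all genes were lower with RELA and 8.13% higher with NFKB2). With 10 kb added, NFKB2 libraries still did not overlap (8 and 7 against 6 and 2), and RELA libraries held 1 and 7 against 4 and 4. Genes lower with RELA and higher with NFKB2 within 1 kb, each without overlap, made up 0.893% of all genes. The NFKB2 difference of 2.5 was 1.5 without knockdown NFKB2 replicate 1. RELB libraries held 4 and 3 against 6 and 4. In no group was an SRSF1 position called in both replicates. Instead, chr17:57990810-57991217, inside the span near the gene's end, was called with all 3 antibodies of knockdown preparation 1 and nowhere else. The strongest SRSF1 peak was in knockdown NFKB2 replicate 2 (−log10 p 4.29, 7 fragments), 6613 bp after the start.

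CDK5 had 9 peaks in all. RELB libraries held 0 and 0 after knockdown and 1 and 1 in control, without overlap (exact permutation p = 0.333; 25% of all genes lower in the same way). RELA libraries held 0 and 3 against 1 and 1, and NFKB2 libraries 1 and 0 against 1 and 0. With 10 kb added, RELB libraries held 1 and 3 against 3 and 3. The CDK5 promoter shown above lay under a peak in 4 libraries, knockdown RELA replicate 2, control RELA replicate 2, control RELB replicate 2 and control NFKB2 replicate 1, with summits 137 to 345 bp before the start. A peak in at least 4 libraries was found over 2.44% of all promoters. Summits there held 3 to 5 fragments, and no pair of replicates was among them.

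TBCA had its lowest counts in the short lists. RELA libraries held 2 and 31 peaks after knockdown and 16 and 11 in control, RELB libraries 1 and 17 against 18 and 16, and NFKB2 libraries 11 and 20 against 24 and 13. The lowest values, 2 and 1, were in the 2 short lists, and the groups overlapped for each antibody (exact permutation p of 0.667 or above). TBCA ranked 7 of 11 in total peaks among its neighbours of like length, which held 102 to 389. Of its 180 summits, 170 were in the span and 1 lay within 1 kb upstream of the start.

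Counted by gene rather than by peak, the conditions differed by at most 1 gene on average. With RELA, 3 and 7 of the 8 genes had a peak after knockdown and 5 and 7 in control (5 ± 2.83 against 6 ± 1.41, SD, n = 2). With RELB these were 4 and 7 against 5 and 7 (5.5 ± 2.12 against 6 ± 1.41). With NFKB2 they were 7 and 6 against 6 and 5 (6.5 ± 0.707 against 5.5 ± 0.707). The differences were −1, −0.5 and 1 genes, and the groups overlapped for each antibody. Summed over the 8 genes, NFKB2 peaks numbered 27 and 33 after knockdown and 32 and 20 in control, with overlap. Without TBCA, the 7 other genes held 16 and 13 NFKB2 peaks after knockdown and 8 and 7 in control (14.5 ± 2.12 against 7.5 ± 0.707), without overlap. Most of this difference of 7 comes from PSENEN (2.5), SRSF1 (2.5) and TPI1 (1.5), already called above, so it is not a further result. NOP10 added 1, BIRC5 −0.5, and TMEM147 and CDK5 0. No share of all genes stands beside this sum. On the same count RELA libraries held 2 and 10 against 6 and 13 (difference −3.5) and RELB libraries 6 and 11 against 11 and 11 (difference −2.5), with overlap. The knockdown NFKB2 lists as a whole held 574722 and 667064 peaks and the control lists 708764 and 675512. Summed over the antibodies of a preparation, peaks at PSENEN (3 and 7 against 0 and 2) and TPI1 (3 and 7 against 2 and 2) were higher after knockdown without overlap, as for 1.8% of all genes. Those at BIRC5 (4 and 5 against 9 and 10) were lower, as for 22.6% of all genes. These 3 sums hold the pairs that the study chose. No gene of the 8 was higher without overlap with RELA or RELB, within 1 kb (0.719% and 0.494% of all genes) or within 10 kb (0.279% and 0.165%), and none was lower with NFKB2 (14.6% and 16.8%).

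Replicates shared few positions at these genes. A position, meaning at least 1 bp common to a peak of each list, was shared by the replicates of a group in 8 of 48 combinations of gene and group (16.7%), of which 5 were TBCA. The other 3 were NOP10 and TPI1 in knockdown NFKB2 and BIRC5 in control NFKB2. Over all genes, whose windows are longer, the share was 15.4% in knockdown RELA, 36.4% in control RELA, 10.6% in knockdown RELB, 37.6% in control RELB, 41.1% in knockdown NFKB2 and 43.6% in control NFKB2. Between antibodies of a preparation, 23 of 96 combinations (24.0%) shared a position, against 39.1% over all genes. Libraries that had neither antibody nor preparation in common did so in 39 of 288 (13.5%), against 30.6%.

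**Figure D4:**
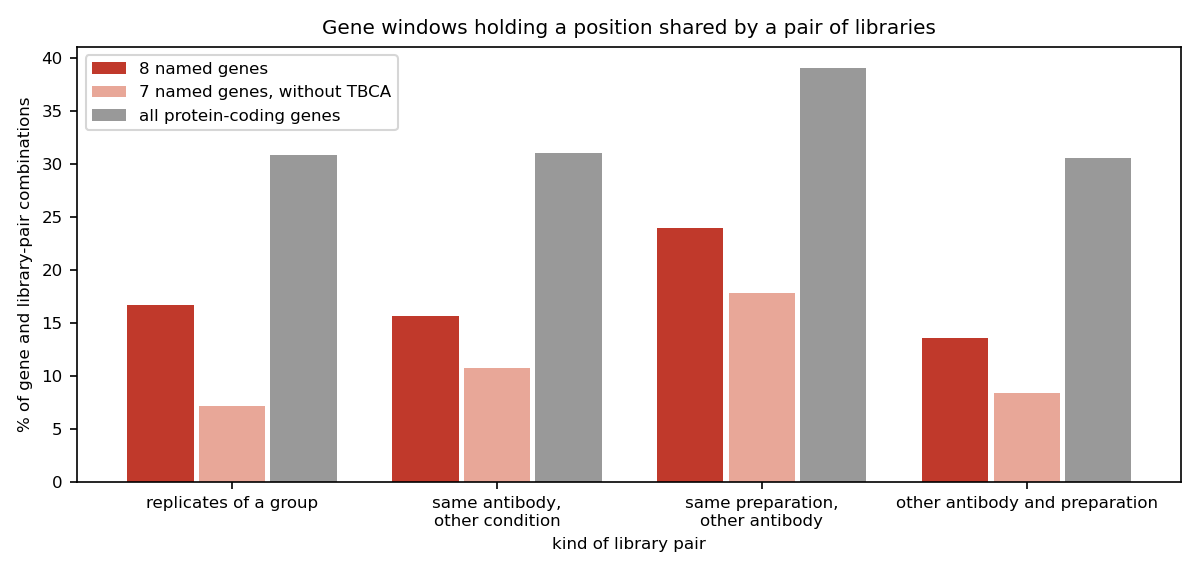
Percent of combinations of gene and library pair in which both libraries had a peak at a common position within the 1 kb window (vertical axis), by kind of library pair (horizontal axis), for the 8 genes, for 7 of them without TBCA, and for all protein-coding genes. Pairs from the same preparation stand highest in all 3 sets, at 24.0% for the 8 genes, and replicates of a group are at 16.7%.

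Summits near the start were listed about as often as at all genes. For the 7 genes with a start in the table, a summit lay within 1 kb of the start in 24 of 84 combinations (28.6%), against 26.8% over 15842 genes. Within 5 kb this was 63 of 84 (75%) against 66.8%. PSENEN made up 7 of the 24, and CDK5, TPI1 and NOP10 4 each.

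Set beside the 10 nearest genes of like length, the 8 genes were above the median of their neighbours in 44 of 96 combinations, at it in 31 and below it in 21. SRSF1 was above in 10 of 12 libraries, BIRC5 in 9, NOP10 in 7 and PSENEN in 6. TBCA was below in 8. In total peaks NOP10, with 14, tied for the highest rank of 11, and TMEM147 ranked 11. The neighbours of NOP10 lay up to 11089.5 kb away and those of TBCA up to 2092.1 kb, so they are hardly local. For the other genes the farthest was 209.2 to 861.8 kb away. TMEM147 and PSENEN are among each other's neighbours, so their comparisons are not separate. U2AF1L4, SPSB2 and VEZF1 are among the neighbours of PSENEN, TPI1 and SRSF1 in turn, and each reaches into the 1 kb window of that gene. The same peak can therefore be counted for both the gene and its neighbour.

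**Figure D5:**
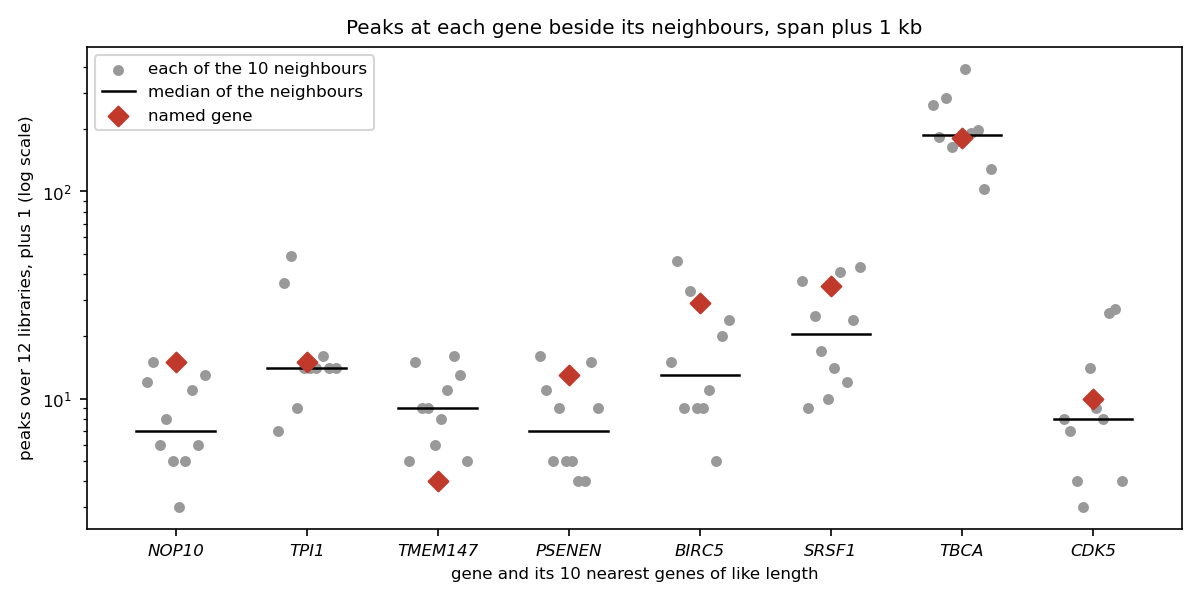
Total peaks over 12 libraries plus 1 (log axis) at each named gene (red diamonds), at each of its 10 nearest protein-coding genes of 0.5 to 2 times its length (grey points) and their median (bars). NOP10 is at the top of its neighbours, TMEM147 at the bottom, and TBCA near the median.

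Genes that work with the 8 in the same complexes or pathways were set beside them from fixed lists, 46 in all. A peak was listed in 77.2% of their combinations, and in 69.3% of those of 25 known NF-κB targets, against 71.9% for the 8 genes and 77.5% for all genes. Median lengths were 17.4, 13.3, 3.81 and 24.1 kb in that order, so these shares are not like for like. Per kb of window over the 12 libraries the medians were 1.59, 1.52, 2.08 and 1.80 peaks. For TPI1, 14 glycolytic genes had a peak in 82.1% of combinations. After knockdown 4 of them were higher and 0 lower with NFKB2, 0 and 3 with RELB, and 0 and 1 with RELA, each without overlap. For SRSF1, 9 other SR protein genes gave 1 higher and 3 lower with RELB, 0 and 1 with RELA, and 1 and 0 with NFKB2. For NOP10, 5 H/ACA factors gave 0 higher and 1 lower with RELA, no call with RELB, and 0 and 2 with NFKB2. For BIRC5, 3 other chromosomal passenger genes gave 0 higher and 1 lower with RELA, no call with RELB, and 1 and 1 with NFKB2. Among 4 genes set beside TMEM147, 2 were lower with RELB, and among 4 tubulin cofactors set beside TBCA, 1 was lower with RELB, with no other call. The 2 CDK5 activator genes gave no call. By total peaks, which rise with gene length, the highest of these lists were HK1 (250, glycolysis), SRSF11 (128, SR proteins), SHQ1 (262, H/ACA) and CDCA8 (32, chromosomal passengers), while per kb of window HK1 (1.87), SRSF11 (2.59) and SHQ1 (2.09) were not the highest of theirs. Over the 46 partner genes, calls without overlap were 0 higher and 5 lower with RELA, 1 and 9 with RELB, and 6 and 3 with NFKB2, beside shares of all genes of 0.719% and 13.5%, 0.494% and 25%, and 8.13% and 14.6%.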

How the data were processed

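ChIP-seq of RELA, RELB and NFKB2 in T47D cells with DAB2IP knockdown or control vector gave 12 deposited peak lists. The 4 inputs have no list of their own. The study states paired-end reads mapped with BWA 0.7.12 and peaks called with MACS2 2.1.0, and the submitters' processing notes name CASAVA 1.8, DiffBind (no settings) and hg38. The authors' lists give positions in bp, the fold enrichment at the summit over local background (a ratio), and an unadjusted −log10 p-value and −log10 q-value for each peak, all used as deposited. Intervals listed for several summits were counted as 1 peak. Gene spans, names and promoter sequences came from RefSeq (GRCh38.p14); all 8 genes matched, and BIRC5 had no start in the promoter table, so 84 rather than 96 combinations were used for starts. A second gene is named only where it overlaps a window or is highest in a partner list. The partner list of 1 of the 8 genes is not reported on its own here. Peaks were counted with pandas 2.3.3 and numpy 2.4.6 under Python 3.11.15, p-values recomputed with scipy 1.17.1 and plots drawn with matplotlib 3.10.9; the counting was tested on simulated lists. Fragments at the summit were solved from the fold enrichment and the Poisson p-value, and came out for all 294 peaks; the IP had been scaled in knockdown RELA replicate 1 (0.909) and knockdown RELB replicate 1 (0.982). Conditions were compared by group means, by whether the groups overlap and by the exact two-sided permutation test (smallest p 0.33 with 2 against 2). If replicates are technical, p-values measure only that spread. The 8 genes, the partner lists and the tests were chosen with earlier results of these data known. Alternatives were the 10 kb window, stricter peaks (−log10 p of at least 3, q at most 0.05, the 20000 smallest p-values, none over 5 kb), summits, larger overlaps, other neighbours and each library left out.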

Additional observations from a re-analysis of the deposited data

Results flagged for a closer look

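At SRSF1, the knockdown minus control difference had opposite signs with different antibodies, and every library of each group moved that way: −1 peaks with RELA (1 and 1 against 2 and 2) and 2.5 with NFKB2 (5 and 3 against 1 and 2). The difference between the antibodies was not tested, and 0.893% of all genes were lower with RELA and higher with NFKB2 in the same way. Taken singly, 13.5% of all genes were lower with RELA and 8.13% higher with NFKB2. Whether the joint share departs from these separate shares was not tested. With 10 kb added, the RELA difference was 0 (1 and 7 against 4 and 4), while NFKB2 stayed higher (8 and 7 against 6 and 2). Under each of the stricter peak sets below, the groups overlapped for both antibodies.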

How the results depend on the processing

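The counts above rest on weak peaks. Under 3 stricter sets (−log10 p of at least 3; each list's 20000 smallest p-values; q at or under 0.05), in that order, combinations with a peak fell from 69 to 18, 10 and 0 of 96, positions shared by replicates from 8 to 0, 0 and 0, positions shared within a preparation from 23 to 1, 0 and 0, summits within 1 kb of a start from 24 to 4, 4 and 0 of 84, and combinations above the neighbours' median from 44 to 14, 9 and 0. The NFKB2 difference of 1 gene was 0 with a −log10 p of at least 3, 0 with a q of at most 0.05 and 0 with 10 kb added, and the RELB difference was 1.5 with the 20000 smallest p-values. Those 20000 are a larger part of the 2 short knockdown lists than of the others, so that cut is looser there. With 10 kb added, shared positions were 14 of 48 for replicates and 39 of 96 within a preparation, and 63 of 84 summits lay within 5 kb of a start. The PSENEN split, 4 more knockdown than control libraries, was 1 with 10 kb added, 0 with a −log10 p of at least 3, 0 at a q of 0.05 or less, 1 among the 20000 smallest p-values and 2 without both short lists (alternatives chosen after seeing the data). The cause of these changes beyond the smaller number of peaks or libraries, or the wider window, was not tested.

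Leaving out each library gave 62 to 66 combinations with a peak, 20 to 24 summits near a start, 38 to 42 combinations above the neighbours, a PSENEN split of 3 to 5, and differences in genes of −3 to 1 (RELA), −2 to 1 (RELB) and 0.5 to 1.5 (NFKB2). The sign did not hold for RELA, where the difference was 1 without knockdown replicate 1 and 0 without control replicate 2, nor for RELB, where it was 1 and 0.5. Of the 6 pairs of gene and antibody whose groups did not overlap, 6 stayed so by summit and without intervals over 5 kb, 3 with 10 kb added and 0 under each of the stricter sets. Of the other pairs, PSENEN with RELB became higher without overlap with the 20000 smallest p-values (1 and 1 against 0 and 0), and BIRC5 with RELA lower with 10 kb added (0 and 3 against 5 and 5). The study had chosen both pairs. A fixed 20000 is a looser cut in knockdown RELB replicate 1, with 75078 peaks, than in the other RELB lists, with 524923 to 557401. It kept a PSENEN peak there with a −log10 p of only 2.97. The share of all genes called at that cut was not counted. The groups share replicate numbers, but the deviations of same-numbered libraries correlated at only −0.0655 (RELA), 0.0291 (RELB) and 0.0578 (NFKB2) over 20037 genes, so the numbers were not read as pairs. With the replicate block the differences in genes stayed −1, −0.5 and 1, since a mean of 2 paired differences equals the difference of means, and the smallest exact p would be 0.5. Depth is not in the lists and limits what a count of 0 at a gene can mean.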
